A study of Ovis aries with 10 samples.

Results

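Corin and the natriuretic peptide genes were described in RNA sequencing libraries of the mediobasal hypothalamus of the ewe, the ventral block around the arcuate nucleus and median eminence. The 7 genes, among 33775 in the count table, were found by their symbols: CORIN, FURIN, NPPA, NPPC, NPR1, NPR2 and NPR3. All 7 were in the table and 6 passed the filter on low counts, among 18276 genes that did so. NPPA, the one left out, is given as read counts. The 7 genes were proposed with the comparison of the phases described here known. CORIN was 4th of the 18276 genes by p in that comparison, and the other genes were added for their roles around it. The differences of these 7 genes between phases are therefore given as a description, with no test.

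The luteal group was made up of 10 adult Ile-de-France ewes in the luteal phase, when the corpus luteum secretes progesterone, and the follicular group of 10 adult ewes of the same breed in the follicular phase. RNA of the ewes of a phase was combined at random into 5 mixes of 2 ewes each, and each mix gave 1 library. Breed, tissue and adult age were common to all 20 animals. A library is thus an average over 2 animals, and the level of a single ewe is not known.

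Natriuretic peptides are made as precursors, cut to their active form outside or on the way out of the cell, and act on membrane receptors that are themselves guanylyl cyclases. Corin is the membrane-bound serine protease that cuts the precursor of atrial natriuretic peptide, best known from the heart, and furin is a protease of the secretory pathway that cuts the precursor of C-type natriuretic peptide. NPR1 makes cGMP in answer to the atrial and brain peptides, NPR2 in answer to the C-type peptide, and NPR3 binds these peptides and removes them. C-type natriuretic peptide is known as the main natriuretic peptide of the brain.

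CORIN was higher in every luteal library than in any follicular library, and in the other 5 tested genes of the group the luteal mean was between 1.01 and 1.16 times the follicular mean, with overlapping libraries. Levels are given as CPM, reads per 1e6 reads of a library after scaling by the trimmed mean of M-values (TMM). CORIN had 35.7, 47.3, 58.7, 38.8 and 51.7 CPM in luteal libraries 1 to 5, against 31.2, 27.9, 23.6, 22.0 and 26.9 CPM in follicular libraries 1 to 5. The groups did not overlap, and the lowest luteal library, luteal 1, stood 4.47 CPM above the highest follicular library, follicular 1. The means were 46.4 ± 9.39 CPM in luteal and 26.3 ± 3.65 CPM in follicular libraries (SD, n = 5 per phase). The log2 fold change of luteal over follicular was 0.82 (SE 0.15), or 1.76-fold. These levels rested on 1464 to 2196 reads per luteal library and 445 to 1234 reads per follicular library. In RNA from whole tissue, more cells that make CORIN and more CORIN RNA per cell cannot be told apart.

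**Figure D1:**
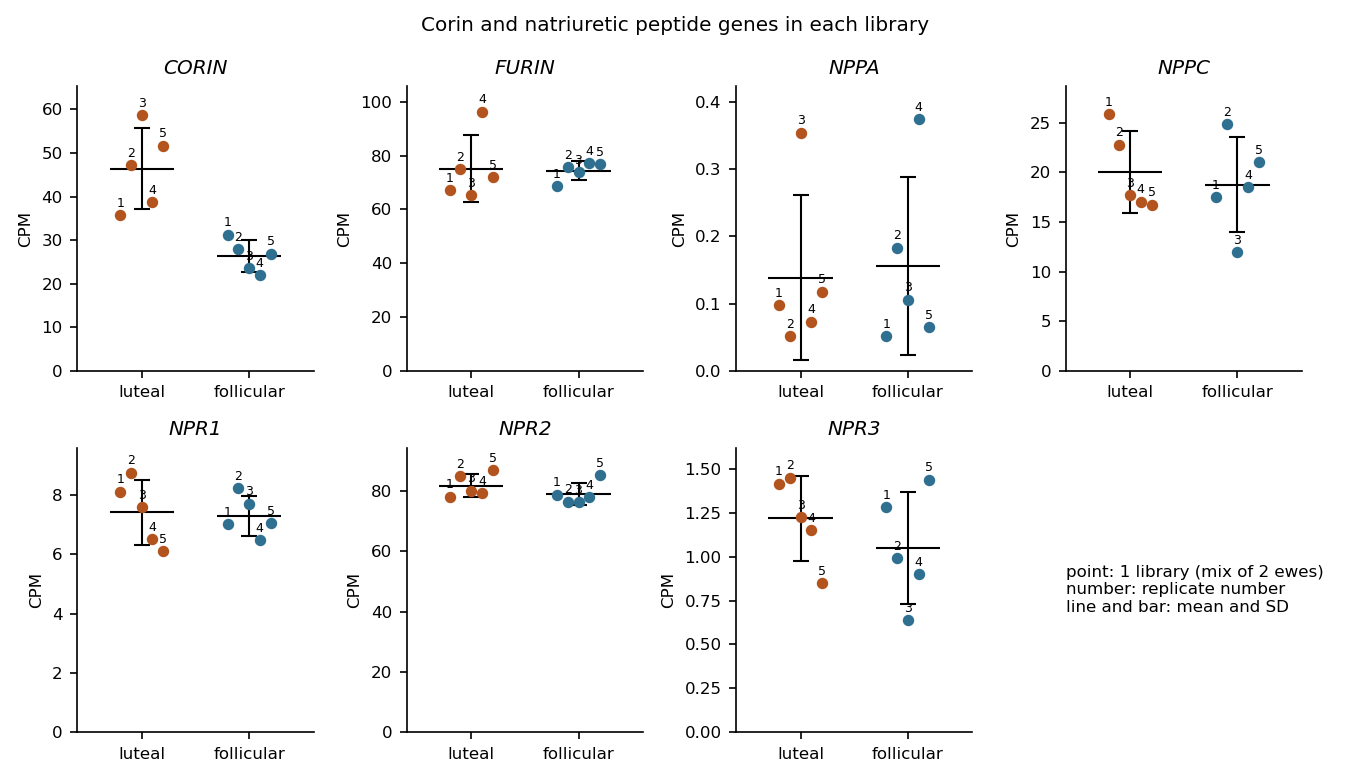
CPM of each of the 7 genes (vertical axes, each from 0) in the luteal and follicular libraries. Points are libraries with their replicate number, lines and bars are mean and SD over 5 libraries; CORIN has all luteal points, from 35.7 CPM, above all follicular points, up to 31.2 CPM, and in the other panels the groups overlap.

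Across all genes, edgeR's quasi-likelihood test with Benjamini-Hochberg adjustment called 0 of the 18276 genes (0%). At an unadjusted p under 0.05 it had 2083 genes (11.4%), limma-voom called 0 genes, and DESeq2 called 29 (0.159% of those to which it gave an adjusted p). Luteal libraries were all higher than all follicular libraries in 111 genes (0.607%), and this was so for 1 of the 6 tested members, CORIN. A log2 fold change at least as large as that of CORIN in the same direction was found in 211 genes (1.15%). Since CORIN was chosen on this comparison, its place in these counts is no test of it and nothing is read from them.

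Libraries differed in ways other than phase, and CORIN is given here beside those measures. Library totals ran from 28571863 to 42358557 reads in luteal and from 20644992 to 43193449 reads in follicular libraries (two-sided exact permutation test over 252 assignments, p = 0.111, adjusted p = 0.175 over 4 library measures). The first principal component of all tested genes, which held 51% of the variance, ran from -14.4 to 58.3 in luteal and from -61.6 to 48.1 in follicular libraries (exact permutation test, p = 0.143, adjusted p = 0.175). Luteal libraries had reads on 22335 to 22852 genes, against 21581 to 22796 genes in the follicular phase, a difference with p = 0.0397 by an exact permutation test and 0.159 after adjustment. Ribosomal protein genes held 1.62 ± 0.241% of luteal and 1.98 ± 0.487% of follicular reads (SD, n = 5 each), with p = 0.175 by the exact permutation test. The part of these measures in the CORIN levels was not tested, and the libraries named next are given as a description only. Follicular 5 had the highest total of all and a component value of 48.1, inside the luteal range, and its CORIN level of 26.9 CPM was below that of every luteal library. Luteal 3, with 28571863 reads and 58.7 CPM of CORIN, was close in total to follicular 2, with 27292984 reads and 27.9 CPM, and follicular 4, with 28669577 reads and 22.0 CPM; luteal 3 and follicular 4 are the extremes in CORIN. Within the luteal phase the libraries with the higher component values, 2, 3 and 5, were those with the higher CORIN, from 47.3 to 58.7 CPM, and luteal 1 and 4 had 35.7 and 38.8 CPM. Follicular libraries showed no such order, the highest CORIN of 31.2 CPM being in follicular 1, at a component value of -53.2, and 27.9 and 26.9 CPM in follicular 2 and 5, at -1.96 and 48.1. With the component as a covariate the log2 fold change of CORIN was 0.66 (SE 0.15), and without follicular 1 and 3, the shallowest libraries, it was 0.86 (SE 0.18). Both fits used the libraries on which CORIN was chosen, so they are no test of its difference.

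**Figure D2:**
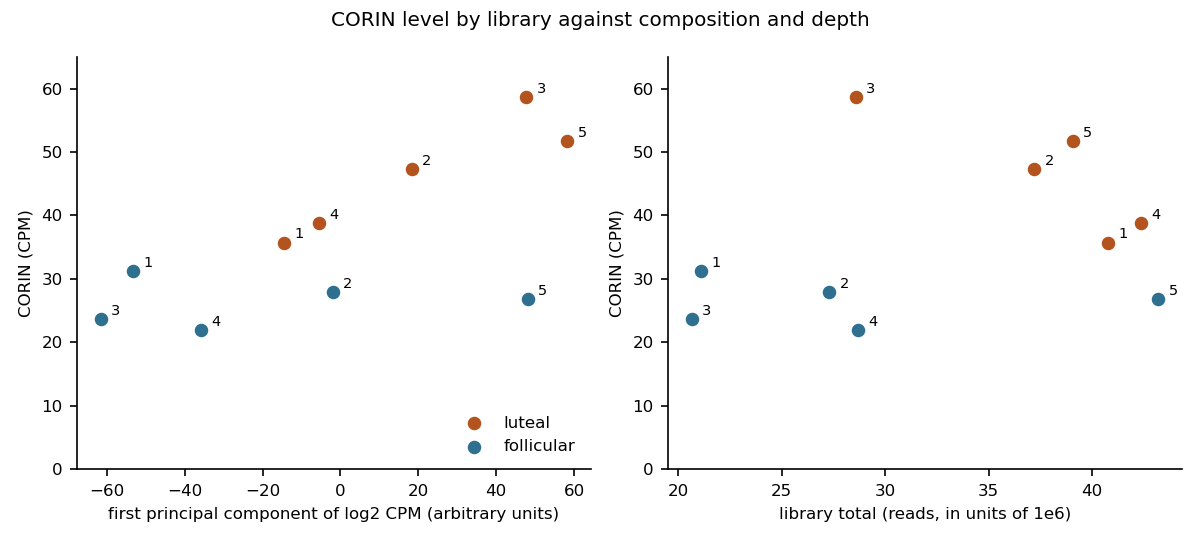
CORIN in CPM (vertical axis) against the first principal component of log2 CPM (left, arbitrary units) and the library total in units of 1e6 reads (right), 1 point per library with its replicate number. Follicular 5 lies within the luteal range of the component and just above the luteal totals, at 26.9 CPM, below the lowest luteal library at 35.7 CPM.

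FURIN, the protease of the secretory pathway, had nearly equal means in the phases and spread more widely among luteal libraries. It had 67.1, 75.0, 65.3, 96.3 and 72.0 CPM in luteal libraries 1 to 5, against 68.7, 75.6, 73.8, 77.2 and 76.9 CPM in follicular libraries 1 to 5. Luteal 4 was above all follicular libraries, luteal 1 and 3 were below all of them, and the groups overlapped. The means were 75.1 ± 12.5 CPM in luteal and 74.5 ± 3.48 CPM in follicular libraries (SD, n = 5 per phase), a log2 fold change of 0.01 (SE 0.11). In the RefSeq gene table the span of FURIN overlaps a non-coding gene, LOC121817076, which had 17 reads in all luteal and 19 in all follicular libraries, against 14674 and 10387 reads for FURIN.

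NPPA, which encodes the precursor of atrial natriuretic peptide and so the best known substrate of corin, was at the limit of detection. It had 4, 2, 11, 3 and 5 reads in luteal libraries 1 to 5, against 1, 5, 2, 10 and 3 reads in follicular libraries 1 to 5. The most reads were in luteal 3 and follicular 4, and the groups overlapped fully. Summed over libraries this was 25 reads or 0.129 CPM in luteal (exact Poisson 95% interval 0.0834 to 0.190) and 21 reads or 0.152 CPM in follicular libraries (0.0940 to 0.232). The intervals cover counting error only and overlap, and a difference between phases was not tested. NPPB, the precursor of brain natriuretic peptide and the neighbour of NPPA in the RefSeq gene order, was also low, with 6 to 28 reads per luteal and 4 to 16 reads per follicular library. Its means were 0.402 ± 0.212 CPM in luteal and 0.360 ± 0.166 CPM in follicular libraries (SD, n = 5 each; log2 fold change 0.16, SE 0.44; edgeR adjusted p = 0.856).

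NPPC, which encodes the precursor of C-type natriuretic peptide, was detected in all libraries, and its means differed by less than the SD of either phase. It had 25.9, 22.8, 17.7, 17.1 and 16.8 CPM in luteal libraries 1 to 5, against 17.5, 24.8, 11.9, 18.5 and 21.1 CPM in follicular libraries 1 to 5. The highest library was luteal 1, the lowest was follicular 3, and 4 of 5 luteal libraries lay within the follicular range. Its means were 20.0 ± 4.09 CPM in luteal and 18.8 ± 4.75 CPM in follicular libraries (SD, n = 5 per phase), a log2 fold change of 0.09 (SE 0.20). OSTN, which encodes osteocrin, a secreted ligand of NPR3, ran from 0.049 to 3.2 CPM in luteal and from 0.044 to 2.1 CPM in follicular libraries. Its log2 fold change was 0.74 (SE 0.95; edgeR adjusted p = 0.678), and without luteal 4, its highest library, it was -0.25 (SE 0.93), and without follicular 1 it was 1.78.

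The receptor genes overlapped between phases in all 3 cases. NPR1, the receptor of the atrial and brain peptides, had 8.10, 8.75, 7.57, 6.50 and 6.10 CPM in luteal libraries 1 to 5, against 7.02, 8.22, 7.69, 6.48 and 7.04 CPM in follicular libraries 1 to 5. Luteal 2 was the highest and luteal 5 the lowest of all libraries, so that the luteal range enclosed the follicular one. The means were 7.40 ± 1.10 CPM in luteal and 7.29 ± 0.674 CPM in follicular libraries, a log2 fold change of 0.02 (SE 0.15; SD, n = 5 per phase).

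NPR2, the receptor of the C-type peptide, was the steadiest of the 7 genes. It had 78.2, 84.9, 80.1, 79.2 and 86.9 CPM in luteal libraries 1 to 5, against 78.8, 76.5, 76.3, 77.9 and 85.3 CPM in follicular libraries 1 to 5. Libraries number 5 of each phase were the highest of their phase, and the groups overlapped. The means were 81.9 ± 3.81 CPM in luteal and 79.0 ± 3.67 CPM in follicular libraries, a log2 fold change of 0.05 (SE 0.08; SD, n = 5 per phase). Its coefficient of variation was 4.65% in luteal and 4.64% in follicular libraries, lower than that of all but 2.33% and 2.06% of the genes tested, where the medians over all tested genes were 18.9% and 21.5%. This measure falls with the read number of a gene, and NPR2 had 1438 to 3914 reads per library.

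NPR3, the clearance receptor, was low. It had 1.41, 1.45, 1.22, 1.15 and 0.848 CPM in luteal libraries 1 to 5, against 1.28, 0.990, 0.637, 0.899 and 1.44 CPM in follicular libraries 1 to 5. Luteal 2 and follicular 5 were the highest of their phases and nearly equal. The means were 1.22 ± 0.242 CPM in luteal and 1.05 ± 0.316 CPM in follicular libraries, a log2 fold change of 0.20 (SE 0.26; SD, n = 5 per phase), from 36 to 58 reads per luteal and 12 to 66 reads per follicular library.

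Further genes of the pathway were compared from lists for peptide processing, peptide breakdown, cGMP effectors, cGMP phosphodiesterases, other guanylyl cyclases with nitric oxide synthases, relatives of corin, and the agouti pathway. Of 72 listed genes that are not among the 7, 61 were tested. Of these 37 were higher and 24 lower in luteal libraries without passing, with a median log2 fold change of 0.08 beside 0.011 over all tested genes. Among all tested genes 51.5% were higher in luteal libraries. The counts by direction, here and for the single lists below, were not tested. The edgeR quasi-likelihood test called 0 of the 61 after adjustment over all genes (adjusted p from 0.426 to 0.985), as it called 0% of all genes. At an unadjusted p under 0.05 there were 2 higher and 3 lower, beside 4.27% of all genes higher and 7.12% lower. DESeq2 and limma-voom called 0 genes of these lists as well. None of the 61 had luteal and follicular libraries that did not overlap, beside 1.12% of all genes.

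Among the proprotein convertases, PCSK6, which activates corin by cutting its zymogen, averaged 41.2 ± 2.28 CPM in luteal and 40.0 ± 6.39 CPM in follicular libraries (SD, n = 5 each; log2 fold change 0.04, SE 0.12; edgeR adjusted p = 0.850). PCSK5 averaged 26.2 ± 4.24 CPM in luteal and 20.7 ± 3.78 CPM in follicular libraries (log2 fold change 0.33, SE 0.15; edgeR adjusted p = 0.426). PCSK7 averaged 46.1 ± 7.37 and 52.5 ± 5.75 CPM in luteal and follicular libraries (log2 fold change -0.19, SE 0.12; edgeR adjusted p = 0.464). Of the 5 tested genes of peptides and processing outside the 7, 4 were higher and 1 was lower, and none passed.

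Of 8 tested genes of peptide breakdown 6 were higher and 2 lower, with a median log2 fold change of 0.11. MME, the gene of neprilysin, the membrane peptidase that degrades natriuretic peptides, averaged 2.91 ± 0.577 CPM in luteal and 2.76 ± 0.498 CPM in follicular libraries (log2 fold change 0.08, SE 0.20; edgeR adjusted p = 0.848). IDE, the insulin-degrading enzyme, which also cuts these peptides, averaged 12.3 ± 2.48 CPM in luteal and 13.2 ± 0.990 CPM in follicular libraries (log2 fold change -0.10, SE 0.15; edgeR adjusted p = 0.739). ECE1, an endothelin-converting enzyme, had a log2 fold change of 0.24 (SE 0.13; edgeR adjusted p = 0.432), and ACE, angiotensin-converting enzyme, one of 0.25 (SE 0.18; edgeR adjusted p = 0.491).

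Downstream of the receptors, 8 of 12 tested cGMP effectors were higher and 4 lower, with a median log2 fold change of 0.21. PRKG1, the gene of cGMP-dependent protein kinase I, averaged 10.1 ± 1.97 CPM in luteal and 9.68 ± 0.549 CPM in follicular libraries (SD, n = 5 each; log2 fold change 0.07, SE 0.15; edgeR adjusted p = 0.827). PRKG2, the gene of cGMP-dependent protein kinase II, was low, at 1.61 ± 0.443 CPM in luteal and 0.987 ± 0.336 CPM in follicular libraries (log2 fold change 0.68, SE 0.30; edgeR adjusted p = 0.426). Its groups overlapped, with 1.05 to 2.02 CPM in luteal and 0.478 to 1.42 CPM in follicular libraries. IRAG1, a substrate of cGMP-dependent kinase I, had a log2 fold change of -0.20 (SE 0.12; edgeR adjusted p = 0.448). With the first component of the libraries added as a covariate, the median of this list was -0.07.

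Of 12 tested genes of cGMP phosphodiesterases and exporters 6 were higher and 6 lower, and the genes with the smallest p were both lower in luteal libraries. PDE9A, a phosphodiesterase specific for cGMP, averaged 35.5 ± 5.71 CPM in luteal and 49.2 ± 11.5 CPM in follicular libraries (log2 fold change -0.47, SE 0.17; edgeR adjusted p = 0.426). PDE10A, which cuts cAMP and cGMP, averaged 36.9 ± 20.3 CPM in luteal and 66.4 ± 19.5 CPM in follicular libraries (log2 fold change -0.85, SE 0.32; edgeR adjusted p = 0.426). Both overlapped between phases, PDE9A with 30.8 to 41.9 CPM in luteal and 35.4 to 61.3 CPM in follicular libraries. PDE5A, another cGMP-specific enzyme, had a log2 fold change of 0.24 (SE 0.19; edgeR adjusted p = 0.520), and PDE2A, which cGMP stimulates, averaged 61.7 ± 9.23 CPM in luteal and 61.9 ± 3.58 CPM in follicular libraries (edgeR adjusted p = 0.985).

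The other source of cGMP, the guanylyl cyclase that nitric oxide activates, was compared through GUCY1A1 and GUCY1B1, the genes of its subunits. GUCY1A1 averaged 23.7 ± 6.39 CPM in luteal and 19.6 ± 10.4 CPM in follicular libraries (log2 fold change 0.27, SE 0.30; edgeR adjusted p = 0.630), and GUCY1B1 averaged 45.9 ± 7.85 and 41.3 ± 14.1 CPM in luteal and follicular libraries (log2 fold change 0.15, SE 0.21; edgeR adjusted p = 0.704). NOS1, the neuronal nitric oxide synthase, averaged 33.4 ± 9.80 CPM in luteal and 45.5 ± 4.07 CPM in follicular libraries (log2 fold change -0.45, SE 0.17; edgeR adjusted p = 0.426). Luteal libraries 2 to 5 had 25.6 to 32.2 CPM and luteal 1 had 50.4 CPM, against 40.8 to 50.8 CPM in follicular libraries. NOS2, the inducible synthase, had a log2 fold change of 0.50 (SE 0.29; edgeR adjusted p = 0.441).

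**Figure D3:**
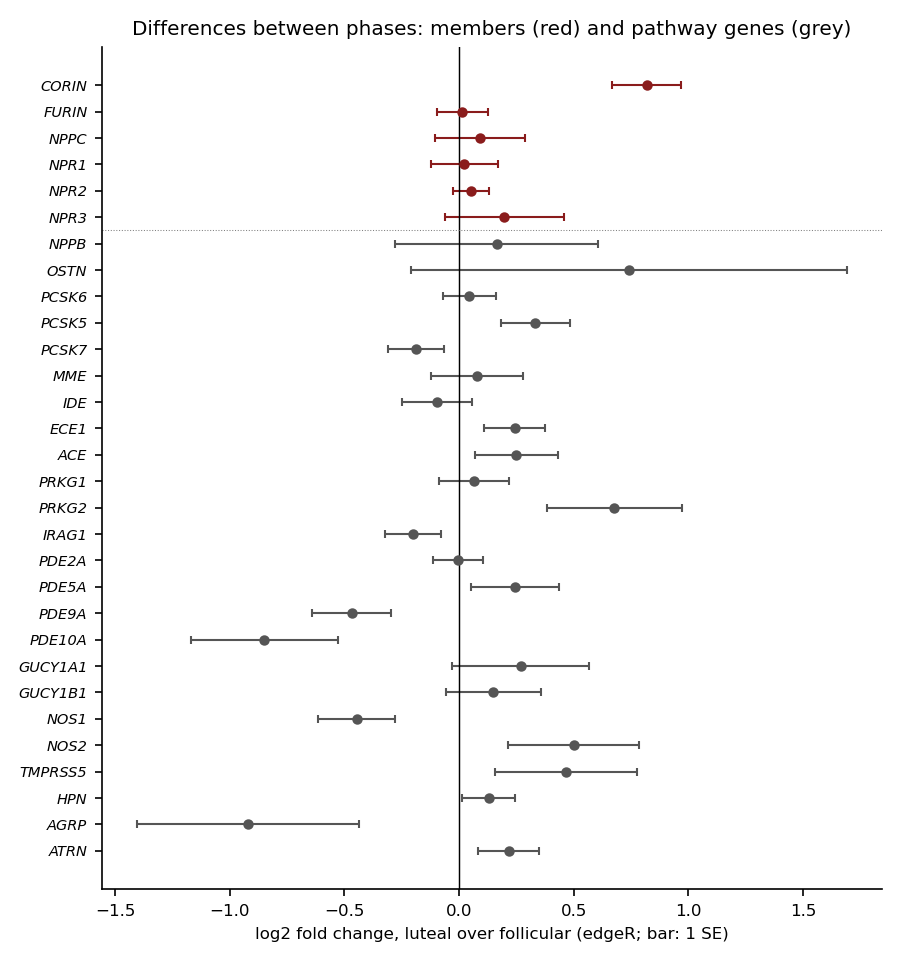
Log2 fold change of luteal over follicular with 1 SE (horizontal axis, edgeR fit) for the 6 tested members (red, top) and the named pathway genes (grey). CORIN lies at 0.82 and the other members between 0.01 and 0.20; grey genes lie between -0.92 (AGRP) and 0.74 (OSTN), with edgeR adjusted p of 0.426 or above.

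Corin belongs to the type II transmembrane serine proteases, and 9 genes of this family and its inhibitors were tested beside it. Of these 5 were higher and 4 lower in luteal libraries, with a median log2 fold change of 0.0074. TMPRSS5, a family member found in the brain and spinal cord, averaged 1.16 ± 0.213 CPM in luteal and 0.828 ± 0.357 CPM in follicular libraries (SD, n = 5 each; log2 fold change 0.47, SE 0.31; edgeR adjusted p = 0.465). HPN, the gene of hepsin, averaged 54.8 ± 7.32 CPM in luteal and 50.1 ± 5.76 CPM in follicular libraries (log2 fold change 0.13, SE 0.12; edgeR adjusted p = 0.566). In mouse skin corin is also known to limit agouti signalling, and of 8 tested genes of that pathway and its melanocortin receptors 4 were higher and 4 lower. AGRP, the brain relative of agouti that drives feeding, had a log2 fold change of -0.92 (SE 0.48; edgeR adjusted p = 0.432), and ATRN, the gene of attractin, an accessory protein of agouti signalling, had one of 0.22 (SE 0.13; edgeR adjusted p = 0.448). In follicular 3 AGRP reached 303 CPM, against 62.1 to 113 CPM in the other follicular libraries, and without it the log2 fold change was -0.30 (SE 0.37).

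The protein-coding genes beside CORIN in the RefSeq gene order were COMMD8 and ATP10D on one side and NFXL1 and CNGA1 on the other, and no gene of that table overlaps its span. COMMD8 averaged 17.9 ± 1.96 CPM in luteal and 16.8 ± 2.38 CPM in follicular libraries (log2 fold change 0.09, SE 0.13; edgeR adjusted p = 0.715). ATP10D had a log2 fold change of 0.50 (SE 0.41; edgeR adjusted p = 0.527) and NFXL1 one of 0.35 (SE 0.31; edgeR adjusted p = 0.552), and CNGA1 was too low to be tested. All of them overlapped between phases. These neighbours were chosen after the values of CORIN were known.

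The genes with the profile most like that of CORIN over the 10 libraries included LOC101108945, TNC, ZFP57 and NR3C2. Likeness was the root mean square difference between the genes' log2 CPM after each gene's own mean was subtracted, and it was 0.137 for LOC101108945, 0.206 for TNC, 0.208 for ZFP57 and 0.213 for NR3C2, against a median of 0.535 over all tested genes. LOC101108945, which RefSeq lists as a pseudogene, averaged 2.34 ± 0.541 CPM in luteal and 1.28 ± 0.202 CPM in follicular libraries (SD, n = 5 per phase). ZFP57, a zinc finger protein known for the upkeep of genomic imprints, averaged 5.18 ± 1.03 CPM in luteal and 3.25 ± 0.620 CPM in follicular libraries. NR3C2, the mineralocorticoid receptor, averaged 28.1 ± 4.34 CPM in luteal and 20.3 ± 3.00 CPM in follicular libraries. TNC encodes the matrix protein tenascin C and had a log2 fold change of 0.68 (SE 0.12).

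Apart from NR3C2, whose groups overlapped, these genes were higher in all luteal than in all follicular libraries. None passed edgeR (adjusted p = 0.426 for each of the 4). Since CORIN was chosen with its difference between phases known, genes with a like profile differ between phases by construction. The other tested members were far from CORIN on this measure, from 0.430 for NPR2 to 0.525 for NPPC, and 4295 to 8745 genes were nearer.

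**Figure D4:**
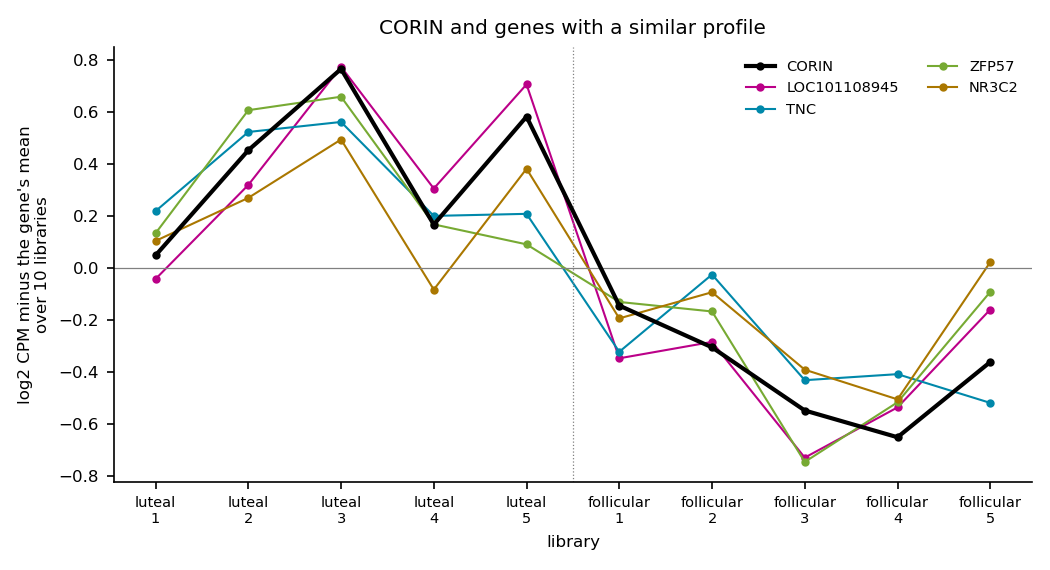
Log2 CPM minus the gene's mean over 10 libraries (vertical axis) in each library (horizontal axis) for CORIN (black) and 4 genes near to it. Lines only join the points of a gene; all 5 genes are highest in luteal 3, and CORIN runs from 0.76 in luteal 3 to -0.65 in follicular 4.

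All 11 listed genes of the mediobasal hypothalamus were detected. This is no test of the tissue label, since no library of another region was compared. POMC had 903 ± 284 CPM in luteal and 1060 ± 369 CPM in follicular libraries (SD, n = 5 per phase). TAC3 had 265 ± 41.8 and 257 ± 50.0 CPM in luteal and follicular libraries. NR5A1, the lowest of the 11, had 4.25 ± 1.17 and 3.30 ± 1.27 CPM. Pituitary hormone genes were high in both phases, with a summed level of 2769 to 4955 CPM in luteal and 3426 to 4929 CPM in follicular libraries. The part of pituitary tissue in the POMC level was not tested. Of 13 marker lists for other cell types, regions and ribosomal proteins, 2 differed between phases at an exact p under 0.05 before adjustment and 0 after it. Endothelial markers were higher in luteal libraries for 8 of 9 genes (difference of the mean log2 level 0.21, exact permutation test, p = 0.00794, the smallest possible, adjusted p = 0.103). Their summed level ran from 250 to 302 CPM in luteal and from 229 to 296 CPM in follicular libraries. Choroid plexus markers were higher for 8 of 8 tested genes, with OTX2 too low to be tested (difference 0.64, exact permutation test, p = 0.0317, adjusted p = 0.206), and summed to 120 to 210 CPM in luteal and 125 to 155 CPM in follicular libraries. No endothelial or choroid plexus marker was at 0 in all libraries. Log2 fold changes of the tested choroid plexus markers ran from 0.04 (FOLR1) to 1.12 (KCNJ13). KCNJ13 was low, with 3 to 40 reads per luteal and 1 to 15 reads per follicular library. ENPP2, with 2962 to 4562 reads per luteal and 1392 to 4821 reads per follicular library, was at 0.10. Mural cell markers summed to 482 to 563 CPM in luteal and 455 to 590 CPM in follicular libraries (difference 0.01, exact permutation test, p = 0.937), and neuronal markers to 884 to 1239 and 1050 to 1217 CPM in luteal and follicular libraries (difference -0.02, exact permutation test, p = 0.897). Ribosomal protein genes were lower in luteal libraries for 18 of 18 genes without passing (difference -0.38, exact permutation test, p = 0.175), and summed to 12398 to 19920 CPM in luteal and 12268 to 26295 CPM in follicular libraries. Oligodendrocyte markers were lower for 7 of 8 genes without passing (difference -0.34, exact permutation test, p = 0.230), and summed to 536 to 1346 CPM in luteal and 865 to 1464 CPM in follicular libraries. Markers of meninges and fibroblasts were higher for 7 of 7 tested genes without passing (difference 0.20, exact permutation test, p = 0.0952), and summed to 665 to 860 CPM in luteal and 650 to 797 CPM in follicular libraries. In the other lists the difference was 0.34 for pituitary, -0.12 for mediobasal hypothalamic, 0.05 for astrocyte and -0.06 for tanycyte and ependymal markers. It was -0.03 for microglial and macrophage and -0.98 for red blood cell markers, with exact permutation p from 0.222 to 0.825 over these lists. Median summed levels went the opposite way for pituitary markers, at 3837 CPM in luteal and 4284 CPM in follicular libraries. The same held for astrocyte (4384 and 6114 CPM) and tanycyte and ependymal markers (1663 and 1501 CPM). The red blood cell score rested on 2 of 6 listed genes, HBB and AHSP, with 0 to 34 reads per library. The part of these cell types in the CORIN levels was not tested.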

How the data were processed

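The authors deposited a single table of raw read counts per gene, with 1 column per library, and every column was matched to a sample by its name. TriReagent was used for extraction and a stranded TruSeq mRNA kit for the libraries, per the labels' protocols. Per the submitters' processing notes the tools included featureCounts 2.0.0, Bowtie2 2.3.5.1 and TopHat2 2.1.1, with no order or settings; genome build, strand setting and the treatment of shared reads are not given in the sources used here. Gene names, gene order and the overlap of gene spans came from RefSeq for assembly ARS-UI_Ramb_v3.0, which matched 31873 of 33775 identifiers (94.4%).

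In R 4.3.3, genes were filtered with filterByExpr by phase (minimum count 10, minimum total 15), scaled by TMM and fitted on the 10 libraries with only phase in the model (edgeR 4.0.16, quasi-likelihood F-test, two-sided, threshold 0.05 after Benjamini-Hochberg over 18276 genes). The biological coefficient of variation was 25.1%. The fit was tested on simulated counts. Member genes took their fold change and standard error from that fit, without a test. Log2 CPM used a prior count of 2; marker scores are means of centred log2 CPM. Since CPM is not divided by gene length, levels were not compared between genes.

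Members and gene lists were chosen with earlier results of these data known. Named were the 7 members, NPPB, OSTN, PCSK6, MME, IDE, PRKG1, PRKG2, PDE2A, PDE5A, PDE9A, GUCY1A1 and GUCY1B1, the 2 non-members of each pathway list with the smallest p and the 5 genes nearest to CORIN, of which 1 is not reported here. None of 45 pairs of libraries agreed within sampling noise (chi-square test), a check that can show only a library entered more than once. Each library counted as a replicate because it is a separate mix of ewes. Alternatives were RLE, upper-quartile and no scaling, other filters, the replicate number as a block, leaving out libraries, the first principal component as a covariate, limma-voom (limma 3.58.1) and DESeq2 1.42.0.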

Additional observations from a re-analysis of the deposited data

Results flagged for a closer look

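Dixon's test for 5 samples (95% limit 0.71) compares the gap between an extreme library and its neighbour with the whole range of the phase. It was passed in 10 of 100 sets of 5 libraries, where about 1 in 20 (here 5) would be passed by chance.

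Among the members, NPPA had 0.354 CPM in luteal 3 against 0.0518 to 0.118 CPM in the other luteal libraries (ratio 0.782), on 11 reads against 2 to 5. NPR2 had 85.3 CPM in follicular 5 against 76.3 to 78.8 CPM in the other follicular libraries (0.719). CORIN passed the limit in neither phase.

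Among the pathway genes, follicular 5 was the highest follicular library for IDE (14.9 against at most 13.0 CPM, ratio 0.742) and GUCY1A1 (37.9 against at most 17.8 CPM, 0.824). Luteal 4 was the highest luteal library for PCSK7 (58.8 against at most 45.8 CPM, 0.726) and ECE1 (478 against at most 334 CPM, 0.788). NOS1 was highest in luteal 1 (50.4 against at most 32.2 CPM, 0.736) and AGRP in follicular 3 (303 against at most 113 CPM, 0.789).

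For summed marker lists, luteal 5 had the lowest luteal level of mediobasal hypothalamic genes (1352 against at least 1830 CPM, 0.869), and follicular 5 the highest follicular level of choroid plexus genes (155 against at most 133 CPM, 0.733).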

How the results depend on the processing

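Under the 20 alternatives run the log2 fold change of CORIN went from 0.66 (first principal component as a covariate) to 0.93 (library totals without TMM). With 1 library left out it went from 0.73 to 0.90. These shifts were within 1 SD of CORIN between replicates, which is a spread of libraries and not the error of the fold change (SE 0.15 in the reported fit). CORIN was chosen on these libraries, so the refits are no test of its difference. The other members each moved less than their own SD between replicates, except NPR2 at 0.15 by library totals, a scaling that moved the median of all genes by 0.099. The count of genes called was 0 except 29 by DESeq2 and 1 (VGF, named after its values were seen) without luteal replicate 4, so 0 to 1 with 1 library left out. TNC passed by DESeq2 (adjusted p = 0.0015). Since TNC was named for its likeness to CORIN, it differs between phases by construction, and this is no test of it. With the component as a covariate the median was -0.074 for cGMP effectors and -0.18 for other guanylyl cyclases, which without follicular 1 and 3 was -0.085; the cause was not tested. Genes that changed sign did so without passing. With the component, log2 fold changes were -0.085 for PCSK6, -0.0069 for MME, 0.019 for PDE2A, -0.052 for PDE5A, -0.18 for GUCY1A1 and -0.18 for GUCY1B1. Without follicular 1 and 3 they were -0.051 for PCSK6 and -0.085 for GUCY1B1, and scores were -0.065 for astrocyte, 0.0094 for tanycyte and ependyma, 0.018 for microglia and -0.070 for mural markers. By library totals IDE was 0.011 and PDE2A 0.090. PDE2A was 0.015 with upper-quartile scaling and 0.0029 with no filter. With 1 library left out the ranges were -0.087 to 0.047 for PDE2A, -0.023 to 0.11 for PCSK6, -0.016 to 0.18 for MME, -0.12 to 0.42 for NPPB, -0.031 to 0.16 for PRKG1 and -0.25 to 1.78 for OSTN. The score ranges were -0.0084 to 0.15 for astrocyte, -0.067 to 0.060 for neuron, -0.026 to 0.072 for mural and -0.075 to 0.042 for microglia markers. Deviations of same-numbered libraries from their phase means correlated at r = 0.362, 0.0541, -0.333, 0.282 and 0.630 for numbers 1 to 5. The mixes were random, and the numbers were not used as pairs. Whether same-numbered libraries share a source of variation was not tested. LOC101108945, TNC, ZFP57 and NR3C2 had an edgeR adjusted p of 0.143 with the replicate block, against 0.426 without it. With the replicate block edgeR called 0 genes, CORIN was at 0.81, and luteal 5 alone among luteal libraries correlated best with its own number. Depth limits NPPA, NPPB and NPR3, whose counts are low.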
